A study of Mus musculus with 10 samples.

Results

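Prostaglandins are lipid messengers made from arachidonic acid, and the genes described here make them, break them down and receive their signal. The set has 9 genes, chosen by name: the phospholipase gene Pla2g4a, the cyclooxygenase genes Ptgs1 and Ptgs2, the terminal synthase genes Ptges and Ptgis, the degrading enzyme gene Hpgd and the receptor genes Ptger2, Ptger3 and Ptger4. Of these, 8 had a probe set annotated to exactly 1 of the symbols, among 12394 genes measured in all, and Ptgs1 was not analysed here. The 8 genes had 13 probe sets, and the one brightest on average over the 10 arrays stood for its gene. No value of a comparison entered the choice of genes, but earlier results of these data were known when they were chosen.

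RNA of cells sorted from the mouse mammary gland was measured on 10 single-colour arrays, each loaded with material from 100 ng of total RNA. Tumour fibroblasts (CAF, 3 arrays), tumour cells labelled as cancer stem cells (CSC, 2 arrays) and the tumour population titled TEC (2 arrays) came from FVB/N mice with the genotype WAPCre-DNbcatn;HGF, called Wnt-Met tumours by the series. WAPCre is a Cre recombinase under the promoter of the milk protein gene Wap, which is active in secretory mammary epithelium. Fibroblasts of control glands (COF, 3 arrays) came from wild-type FVB/N mice, so CAF and COF differ in the genotype of the animal as well as in the tissue. Another label field calls the TEC cells TEFs, and ages, sorting markers and the number of mice behind an array are not given in the sources used here. Each p-value therefore describes the spread between arrays, which may be technical.

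In background terms, cytosolic phospholipase A2, the product of Pla2g4a, frees arachidonic acid from membranes. The constitutive and the inducible cyclooxygenase, products of Ptgs1 and Ptgs2, turn it into prostaglandin H2, from which Ptges makes prostaglandin E2 and Ptgis makes prostacyclin. Hpgd oxidises prostaglandin E2 to an inactive form. Of the receptors for prostaglandin E2, EP2 and EP4 (genes Ptger2 and Ptger4) raise cyclic AMP in the cell, while EP3 (gene Ptger3) mostly lowers it. The inducible enzyme is a known source of prostaglandin E2, including during inflammation.

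The arrays matched their labels in part. The median of 10 fibroblast markers was 12.79 on each of the 3 CAF arrays, 8.42 and 8.60 on the CSC arrays, 9.13 and 11.34 on the TEC arrays and 12.40 to 12.43 on the COF arrays (log2 values). TEC replicate 2 was thus higher in fibroblast markers than TEC replicate 1. The median of 8 leukocyte markers was 6.79 to 8.12 in CAF, 11.43 and 11.00 in CSC, 13.54 and 13.15 in TEC, and 5.22 to 6.07 in COF. On both TEC arrays this lay above the median of 10 epithelial markers, 9.30 and 9.94. On the CSC arrays the epithelial median, 12.17 and 11.97, lay above the leukocyte median. It was slightly under the median of 8 macrophage markers there, 12.37 and 12.06. Whether the arrays differ through fewer cells of a type or through less RNA per cell cannot be told apart in such bulk samples, here and in every result that follows. CAF replicates 1 and 2 lay closest together, the differences over all genes having an SD of 0.14, followed by COF replicates 1 and 3 with 0.18, against 0.21 to 0.36 for the other pairs within these groups.

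**Figure D1:**
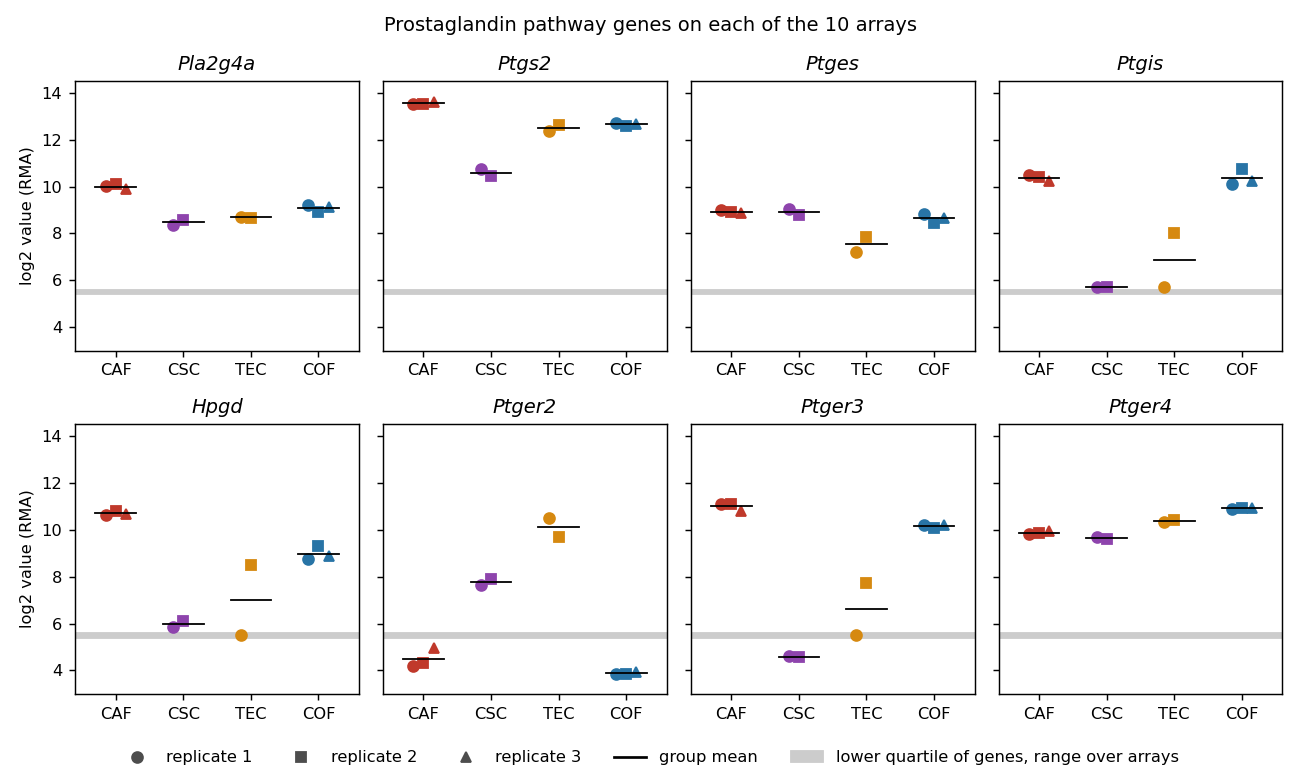
Log2 values of the 8 measured genes (vertical axis) on each array, grouped as CAF, CSC, TEC and COF on the horizontal axis. Each point is 1 array, its shape gives the replicate number, the black line is the group mean, and the grey band spans the lower quartile of all genes over the arrays (5.40 to 5.59). Ptgs2 and Pla2g4a are highest on the CAF arrays, Ptger2 on the TEC arrays and Ptger4 on the COF arrays, and TEC replicate 2 lies above TEC replicate 1 for Ptgis, Ptger3 and Hpgd.

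Tumour fibroblasts were first set against fibroblasts of control glands. CAF carried more transcript of the enzymes that start the pathway, Pla2g4a and Ptgs2, and of the degrading enzyme Hpgd, and less of the receptor gene Ptger4. Ptgs2 was 1.86-fold higher, Pla2g4a 1.89-fold higher, Hpgd 3.29-fold higher and Ptger4 2.06-fold lower in CAF (limma, adjusted p under 0.05, n = 3 and 3). The synthase genes Ptges and Ptgis and the receptor genes Ptger2 and Ptger3 did not pass. In all, 3 of the 8 genes were called higher, against 18.1% of all genes, and 1 was called lower, against 16.7%, and 34.8% of all genes passed in either direction. The median difference of the 8 genes was 0.73, beside 0.018 over all genes.

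The bases around the start sites of the 4 genes that changed between CAF and COF are shown to let their control regions be compared. Each run has 200 bases before the annotated start and the first 30 bases from it, in RefSeq's GRCm38.p6, read 5′ to 3′ on the gene's own strand, and capitals mark matches to the motifs below.
Ptgs2 (chr1:150099831-150100060, plus strand): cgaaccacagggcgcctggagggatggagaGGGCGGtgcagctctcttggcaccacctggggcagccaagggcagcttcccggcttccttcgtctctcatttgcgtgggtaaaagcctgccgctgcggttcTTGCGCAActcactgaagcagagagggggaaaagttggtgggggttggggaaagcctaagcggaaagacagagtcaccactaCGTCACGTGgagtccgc
Pla2g4a (chr1:149961261-149961490, minus strand): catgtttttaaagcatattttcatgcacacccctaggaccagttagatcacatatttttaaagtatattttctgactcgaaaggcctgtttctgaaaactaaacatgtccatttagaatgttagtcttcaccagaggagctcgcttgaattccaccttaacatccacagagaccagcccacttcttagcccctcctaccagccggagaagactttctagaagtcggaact
Hpgd (chr8:56294352-56294581, plus strand): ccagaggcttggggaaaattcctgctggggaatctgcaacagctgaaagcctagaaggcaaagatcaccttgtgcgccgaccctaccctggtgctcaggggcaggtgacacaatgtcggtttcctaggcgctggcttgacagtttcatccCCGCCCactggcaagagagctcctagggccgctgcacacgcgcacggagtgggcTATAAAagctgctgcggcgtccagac
Ptger4 (chr15:5244158-5244387, minus strand): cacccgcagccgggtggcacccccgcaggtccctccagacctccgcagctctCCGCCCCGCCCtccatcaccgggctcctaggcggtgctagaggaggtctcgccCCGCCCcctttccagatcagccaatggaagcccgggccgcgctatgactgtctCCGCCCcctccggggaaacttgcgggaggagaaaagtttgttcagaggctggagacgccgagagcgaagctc

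Both strands were searched for 6 motifs: the cyclic AMP response half-site TGACG, the C/EBP palindrome TTGCGCAA, the E-box CACGTG, the GC box GGGCGG, the TATA box TATAAA and the AP-1 site TGANTCA. The Ptgs2 window held the first 4 of these, with the half-site (as CGTCA) and the E-box overlapping at bases 14 to 22 from the annotated start. The start sites used in these cells were not measured. Of 32851 RefSeq windows of the same length, 0.149% held the palindrome, 17.9% the half-site, 6.05% the E-box, 33.1% the GC box, 10.7% the TATA box and 6.21% the AP-1 site. Hpgd held a GC box, and a TATA match after the annotated start, at bases 5 to 10. Ptger4 held 4 GC boxes on the opposite strand, a pair of which share a base, and the window of Pla2g4a held none of the 6. Among the windows not shown, Ptges held 2 GC boxes and Ptger3 held 3, that of Ptger2 held no match, and at the second annotated start of Pla2g4a there was 1 TATA match on the opposite strand. A match describes the letters of the window and not a bound site.

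Pla2g4a stood at 10.02, 10.09 and 9.90 on the CAF arrays, against 9.19, 8.93 and 9.12 on the COF arrays (log2 values). Every CAF array lay above every COF array, and the difference was 0.92 ± 0.10 (log2 difference ± moderated SE, adjusted p = 2.60e-04). Ptgs2 stood at 13.51, 13.54 and 13.61 in CAF, against 12.70, 12.58 and 12.68 in COF. The groups did not overlap here either, and the spread within each was small, with an SD of 0.05 in CAF and 0.06 in COF. The difference was 0.89 ± 0.11 (adjusted p = 3.19e-04), and the second Ptgs2 probe set differed by 0.71 (adjusted p = 0.00103).

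Neither synthase gene passed between the fibroblast groups. Ptges, which makes prostaglandin E2, was at 8.99, 8.91 and 8.89 in CAF, against 8.85, 8.43 and 8.64 in COF. Although the CAF arrays were all higher, the difference of 0.29 had a 95% confidence interval from -0.10 to 0.67 (adjusted p = 0.246). Ptgis, which makes prostacyclin, was at 10.49, 10.42 and 10.23 in CAF, against 10.12, 10.73 and 10.23 in COF. The groups overlapped, and the difference of 0.024 had an interval from -1.02 to 1.07 (adjusted p = 0.980).

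Hpgd, whose product inactivates prostaglandin E2, was at 10.64, 10.81 and 10.65 in CAF, against 8.74, 9.31 and 8.88 in COF. All CAF arrays lay above all COF arrays, by 1.72 ± 0.59 (adjusted p = 0.0496). The wide SE comes with the TEC arrays, which share the estimate of the spread and stood at 5.53 and 8.50. Fitted on the 6 fibroblast arrays only, the SE was 0.15 and the adjusted p 1.38e-04. The call was lost without any 1 of the CAF or COF arrays (adjusted p of 0.0710 to 0.137). It was also lost with a trended robust prior (0.0635) and with the close pairs of arrays averaged (0.247). The second Hpgd probe set rose by 1.26 (adjusted p = 2.01e-04).

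Of the receptor genes only Ptger4 passed. Ptger4, coding for EP4, was at 9.81, 9.86 and 9.93 in CAF, against 10.89, 10.92 and 10.92 in COF. It fell by 1.04 on the log2 scale with an SE of 0.08 (adjusted p = 3.86e-05), without overlap, and its second probe set fell by 1.26 (adjusted p = 7.85e-05). Ptger3, coding for EP3, was at 11.11, 11.09 and 10.81 in CAF, against 10.21, 10.07 and 10.18 in COF. The arrays did not overlap, but the difference of 0.85 ± 0.44 did not pass (adjusted p = 0.175), again with the TEC arrays, at 5.50 and 7.71, in the estimate of the spread. With only fibroblast arrays fitted, Ptger3 passed as higher in CAF, with an SE of 0.10 and an adjusted p of 4.77e-04. Ptger2, coding for EP2, was at 4.20, 4.31 and 4.97 in CAF, against 3.86, 3.87 and 3.91 in COF. All 6 values lay under the lower quartile of the genes on their array, and the difference of 0.61 ± 0.24 did not pass (adjusted p = 0.0781), though it did with only fibroblast arrays fitted (0.0324). CAF replicate 3, the highest of these for Ptger2, was also the CAF array with the highest leukocyte median, 8.12 against 6.85 and 6.79.

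Markers of other cells moved between these groups too. In CAF all 8 leukocyte markers, 5 of 8 macrophage, 4 of 8 mast cell and 6 of 10 epithelial markers were called higher than in COF, and 5 of 7 measured adipocyte markers lower, while 0 of 10 fibroblast markers passed. The fibroblast markers also had the TEC arrays in their estimate of the spread, and with only fibroblast arrays fitted 3 were higher and 2 lower in CAF, among them Pdpn (0.90 ± 0.12) and Pdgfrb (-0.88 ± 0.08). Of 8 pericyte and smooth muscle markers 3 were higher and 0 lower, with Acta2 at averages of 12.04 in CAF and 8.96 in COF, and of 6 platelet markers 2 were higher and 2 lower. Endothelial markers were lower in 2 of 8 and higher in none, with array medians of 5.73 to 5.75 in CAF and 5.11 to 6.27 in COF. Their part in the differences of the prostaglandin genes was not tested.

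**Figure D2:**
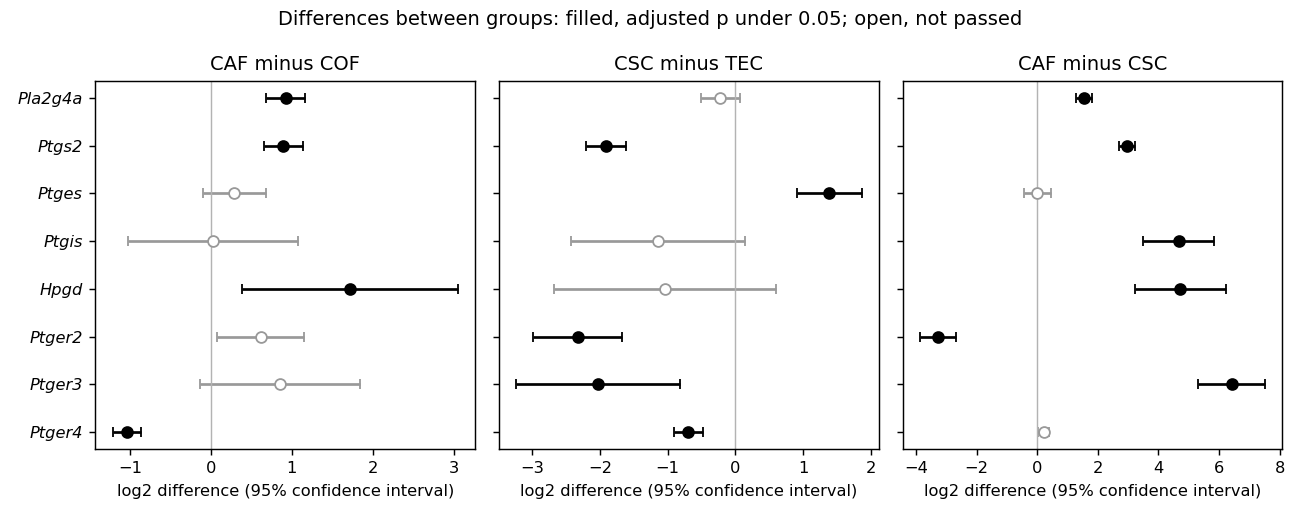
Log2 differences (horizontal axis, with 95% confidence intervals) of the 8 genes between CAF and COF, CSC and TEC, and CAF and CSC. Filled black points passed at an adjusted p under 0.05 and open grey points did not. Between CAF and COF, Pla2g4a, Ptgs2 and Hpgd lie to the right of 0 and Ptger4 to the left, and Ptges is the 1 filled point to the right between CSC and TEC. The horizontal scales of the panels differ.

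Within the tumour, CSC were set against TEC. CSC carried less transcript of Ptgs2 and of the receptor genes Ptger2, Ptger3 and Ptger4, and more of the synthase gene Ptges. Of the 8 genes 4 were called lower in CSC, against 20.1% of all genes, and 1 higher, against 26.6%, and 46.7% of all genes passed in either direction (limma, n = 2 and 2). The median difference was -1.09, beside 0 over all genes to 2 decimals.

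Ptgs2 was at 10.73 and 10.45 in CSC, against 12.36 and 12.63 in TEC. It was lower in CSC by a log2 difference of -1.91 ± 0.13 (adjusted p = 1.17e-05), and the second probe set differed by -1.78 (adjusted p = 1.49e-05). Ptges went the other way, at 9.05 and 8.80 in CSC, against 7.22 and 7.87 in TEC. Its difference was 1.38 ± 0.21 (adjusted p = 6.55e-04) and that of its second probe set 1.17 (adjusted p = 0.00123). All 10 epithelial markers were called higher in CSC too, by a median of 2.29, and their part in the Ptges difference was not tested. Thus the gene of the inducible cyclooxygenase and that of the prostaglandin E2 synthase had opposite directions between these populations. Pla2g4a did not pass, at 8.35 and 8.58 in CSC, against 8.71 and 8.67 in TEC (-0.22 ± 0.13, adjusted p = 0.186).

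Ptger2 was at 7.63 and 7.91 in CSC, against 10.49 and 9.70 in TEC, a difference of -2.33 ± 0.29 (adjusted p = 2.24e-04). The 8 leukocyte markers were all called lower in CSC as well, by a median of -2.13. Of 8 macrophage markers, though, 3 were called higher in CSC and 0 lower, with a median of 0.024. The part of either cell type in the Ptger2 difference was not tested. Ptger4 differed less, at 9.70 and 9.63 in CSC, against 10.31 and 10.41 in TEC (-0.70 ± 0.09, adjusted p = 3.29e-04). How the remaining genes differed depended on which TEC array was read, though Ptger3 was lower in CSC against either. Ptger3 was at 4.60 and 4.57 in CSC, under the lower quartile, against 5.50 and 7.71 in TEC (-2.02 ± 0.54, adjusted p = 0.0125), and in a fit on these 4 arrays alone it did not pass (adjusted p = 0.121).

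Ptgis was at 5.72 on both CSC arrays, against 5.73 and 8.0 in TEC. Hpgd was at 5.83 and 6.11 in CSC, against 5.53 and 8.50 in TEC, where the groups overlapped. Neither passed (adjusted p = 0.128 for Ptgis and 0.273 for Hpgd). TEC replicate 2 was the high array for Ptgis, Ptger3 and Hpgd, and it also carried the higher fibroblast marker median of the TEC pair, 11.34 against 9.13. Without TEC replicate 1, Ptgis differed by -2.28 (adjusted p = 1.16e-04) and Hpgd by -2.53 (adjusted p = 5.68e-05), while without TEC replicate 2 Ptgis differed by -0.0092 (adjusted p = 0.978) and Hpgd by 0.45 (adjusted p = 0.138). Ptger3 differed by -3.13 without TEC replicate 1 and by -0.91 without TEC replicate 2, and its call was lost without CSC replicate 2 (adjusted p = 0.0575). The part of fibroblast RNA in these values was not tested.

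The comparison of CAF with CSC sets the fibroblasts beside the stem cell-labelled cells of the same kind of tumour. CAF carried more transcript of Pla2g4a, Ptgs2, Ptgis, Hpgd and Ptger3 than CSC, and CSC more of Ptger2. Of the 8 genes 5 were called higher in CAF, against 33.4% of all genes, and 1 lower, against 33.1%, and 66.5% of all genes passed in either direction (limma, n = 3 and 2). With such a background the number of calls says little about these genes, and the sizes are given instead.

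Ptger3 had the greatest of these differences, 6.42 ± 0.49 (adjusted p = 5.04e-06), followed by Hpgd (4.72 ± 0.66, adjusted p = 2.09e-04) and Ptgis (4.66 ± 0.52, adjusted p = 5.01e-05). Ptger3 in CSC lay under the lower quartile of the array, so this size is uncertain. The second Hpgd probe set differed by 3.12 (adjusted p = 2.91e-07). In CSC Ptgis (5.72 on both arrays) and Hpgd (5.83 and 6.11) lay little above the lower quartile of 5.44 and 5.40. Their sizes are thus uncertain too. Ptgs2 was 7.77-fold higher in CAF (2.96 ± 0.12, adjusted p = 1.22e-07), with every CAF array at least 13.51 and every CSC array at most 10.73. Pla2g4a was 2.90-fold higher in CAF (1.53 ± 0.12, adjusted p = 5.09e-06). Ptger2 was lower in CAF by -3.27 ± 0.27 (adjusted p = 7.77e-06), where it lay under the lower quartile. All 10 fibroblast markers were higher in CAF, and all 8 leukocyte, 8 macrophage and 10 epithelial markers were higher in CSC. Their part in these differences was not tested.

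Ptges and Ptger4 were the 2 genes that did not pass between CAF and CSC. Ptges averaged 8.93 in both groups (0.0023 ± 0.19, adjusted p = 0.992), with an interval from -0.43 to 0.44. Its second probe set averaged higher in CSC, by a CAF minus CSC difference of -0.86 (adjusted p = 0.00231), so the probe sets disagreed. Ptger4 averaged 9.87 ± 0.06 in CAF and 9.66 ± 0.05 in CSC (SD, n = 3 and 2), a difference of 0.21 (adjusted p = 0.0599). All CAF arrays lay above the CSC arrays for Ptger4. With each array centred on its median the Ptger4 difference was 0.29 and passed (adjusted p = 0.0168). It also passed as the mean of its probe sets (0.25, adjusted p = 0.0364) and after a second quantile normalization (0.22, adjusted p = 0.0493).

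**Figure D3:**
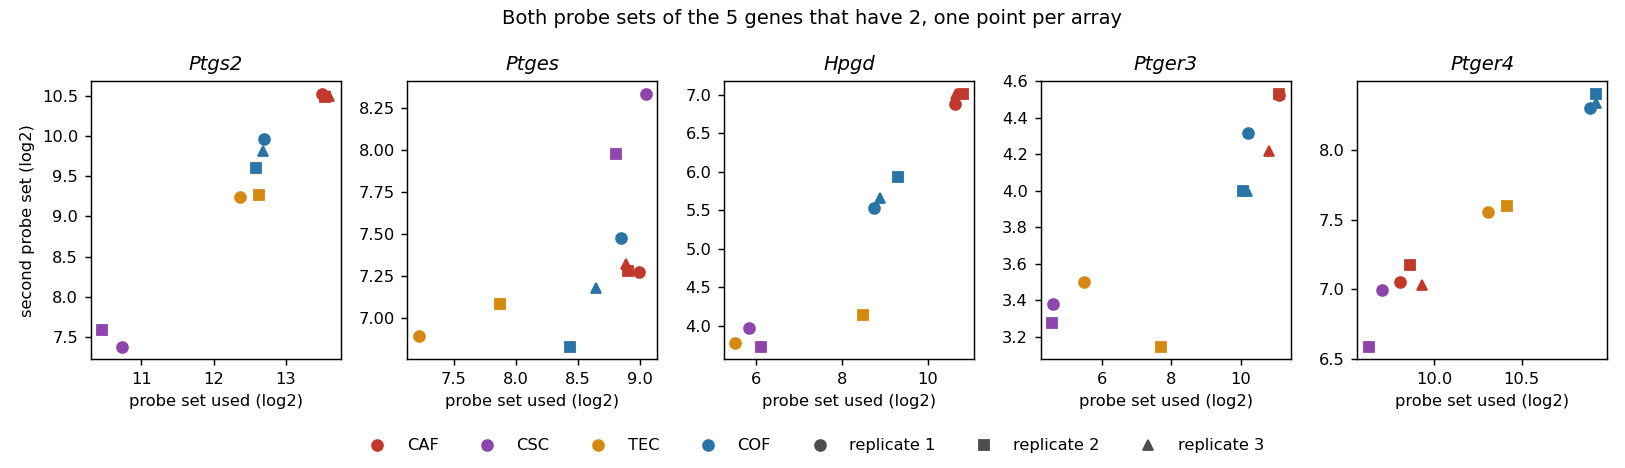
Log2 values of the second probe set (vertical axis) against the probe set used (horizontal axis) for the 5 genes with 2 probe sets, each point being 1 array, coloured by group and shaped by replicate number. The pairs run closely together for Ptgs2 and Ptger4, while for Ptges the CSC arrays stand above all others on the second probe set only (8.33 and 7.98, against at most 7.48). Axis ranges differ between panels.

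The agreement of the probe sets bears on how firmly each gene can be read. Over the 10 arrays Pearson's r between both probe sets was 0.98 for Ptgs2, 0.99 for Ptger4, 0.94 for Hpgd, 0.88 for Ptger3 and 0.59 for Ptges, given as descriptions since the arrays fall into groups. The second probe set of Ptger3 lay between 3.15 and 4.53, under the lower quartile everywhere. Ptgis, Ptger2 and Pla2g4a had 1 probe set each.

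Against TEC, all 8 genes passed in CAF, 6 of them higher (38.6% of all genes) and 2 lower (28.9%), where 67.5% of all genes passed in either direction. Ptger2 was lower in CAF by -5.60 ± 0.27 (adjusted p = 3.85e-07) and Ptger4 by -0.49 ± 0.09 (adjusted p = 7.89e-04). Ptgs2 was higher in CAF by 1.05 ± 0.12 (adjusted p = 5.89e-05), Pla2g4a by 1.31 ± 0.12 (1.54e-05) and Ptges by 1.39 ± 0.19 (2.01e-04). The second Ptges probe set differed by 0.30 and did not pass (0.165). Against COF, 7 of the 8 genes passed in CSC, where 69.5% of all genes did, with 1 higher (33.7%) and 6 lower (35.8%). In TEC 7 passed as well, where 68.2% of all genes did, with 1 higher (29.8%) and 6 lower (38.5%). The 1 higher gene was Ptger2, by 3.89 ± 0.27 in CSC and by 6.22 ± 0.27 in TEC. Since Ptger2 lay under the lower quartile on every CAF and COF array, the sizes of its differences from CSC and TEC are uncertain. These comparisons share arrays with those above and add no separate evidence.

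Read across the 4 groups, Ptgs2, Pla2g4a, Ptgis, Hpgd and Ptger3 had the same order of means, with CAF highest, then COF, TEC and CSC. Ptgs2 was highest in CAF, then in COF and TEC, which did not pass against each other (TEC minus COF -0.16 ± 0.12, adjusted p = 0.259), and lowest in CSC. Its second probe set did separate TEC from COF (-0.55, adjusted p = 0.00265). In that order CAF and COF did not pass for Ptger3, and TEC and CSC did not pass for Pla2g4a and Hpgd. The step from TEC to COF was not firm for Hpgd (TEC minus COF -1.97, adjusted p = 0.0244), which without TEC replicate 1 was -0.48 (0.0784) and with only those 2 groups fitted did not pass (0.0866). For Pla2g4a it was lost without TEC replicate 2 (0.0539). Ptgis split into a high pair, CAF and COF, and a low pair, TEC and CSC, with no call within either pair. Ptger4 was highest in COF, then TEC, then CAF and CSC, which were not separated in the fit used but were in some alternatives. Ptger2 was highest in TEC, then CSC, with CAF and COF at the low end and not separated. For Ptges, CAF, CSC and COF were not separated and TEC was lowest, but its second probe set placed CSC above COF (0.99, adjusted p = 9.08e-04) and above CAF, and did not separate TEC from COF (-0.17, adjusted p = 0.419).

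For each gene the 3 others with the most similar values over the 10 arrays were picked by Pearson's r, which in such a design mostly reflects shared differences between groups. Closest to Ptgs2 were Crot (0.995), Grk5 (0.989) and Vcan (0.986), and closest to Pla2g4a were Rgn (0.987), Leprot (0.986) and Adam9 (0.983). For Ptges they were Ndrg1 (0.996), Pmepa1 (0.974) and Lztr1 (0.973), for Ptgis Tril (0.998), P3h3 (0.997) and Plpp1 (0.996), and for Hpgd Tspan6 (0.996), Olfml3 (0.994) and Sfrp1 (0.992). Among the receptors, Ptger2 went with Adam8 (0.997), Ifi209 (0.996) and Alox5ap (0.996), the last a protein of leukotriene synthesis. Ptger3 went with Susd2 (0.998), C1ra (0.998) and Srpx2 (0.997), and Ptger4 with Cndp2 (0.983), Ppp1r15a (0.978) and Asap1 (0.975).

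Other receptors of prostanoids were compared as a list of 6 genes, all measured. Counts of this and the following lists are to be read beside the shares of all genes called. These were 18.1% higher and 16.7% lower between CAF and COF, and 26.6% higher and 20.1% lower between CSC and TEC. Of the 6 receptor genes 1 was called higher between CAF and COF, 0 lower and 5 did not pass. Their median difference was 0.041, beside 0.018 over all genes. The 1 was Ptgfr, the receptor of prostaglandin F2-alpha, which averaged 7.48 in CAF and 5.35 in COF (2.13 ± 0.19, adjusted p = 9.14e-05), a 4.38-fold difference whose size is uncertain, since COF replicates 1 and 3 lay under the lower quartile. Against CSC all 6 were called higher in CAF, beside 33.4% of all genes. Among the 6 were Ptgfr (3.97 ± 0.21) and the prostacyclin receptor gene Ptgir (2.85 ± 0.24). On the CSC arrays 4 and 5 of the 6 lay under the lower quartile, Ptgfr and Ptgir among them, so these sizes are uncertain. Ptgir stood out between the tumour populations, with averages of 4.90 in CSC and 7.42 in TEC (-2.52 ± 0.26, adjusted p = 8.13e-05), the CSC values being under the lower quartile. The thromboxane receptor gene Tbxa2r averaged 7.87 in CAF and 6.74 in CSC (1.13 ± 0.12).

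Of 8 genes listed as other synthases of prostanoids 6 were measured. They include Ptgr2, a prostaglandin reductase gene like Ptgr1 below, which is not a synthase gene. None of the 6 passed between CAF and COF (0 higher, 0 lower), though 2 were higher with only fibroblast arrays fitted. Ptges2, a second prostaglandin E2 synthase gene, came nearest (0.39 ± 0.14, adjusted p = 0.0508). Between CSC and TEC 4 were higher and 1 lower in CSC. The haematopoietic prostaglandin D synthase gene Hpgds averaged 6.46 on the CSC arrays and 5.31 on the TEC arrays (1.14 ± 0.24, adjusted p = 0.00386, with both TEC arrays under the lower quartile), and the carbonyl reductase gene Cbr1 averaged 8.98 in CSC and 7.51 in TEC (1.47 ± 0.14). The thromboxane synthase gene Tbxas1 was lower in CSC (-0.40 ± 0.12, adjusted p = 0.0228). Against CSC, Hpgds (-2.51 ± 0.22), Tbxas1 (-1.20 ± 0.11) and Ptges2 (-0.71 ± 0.15) were lower in CAF and Ptgr2 (0.75 ± 0.16) higher, with Hpgds under the lower quartile on all CAF arrays.

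Genes listed under prostaglandin uptake and breakdown, Hpgd and Ptgr2 aside, were measured in 5 of 6 cases. Between CAF and COF 1 was called higher and 3 lower. Ptgr1, a reductase acting after Hpgd, averaged 10.28 in CAF and 9.30 in COF (0.98 ± 0.10, adjusted p = 1.36e-04). The prostaglandin transporter gene Slco2a1, whose product brings prostaglandins into the cell for oxidation, averaged 8.21 in CAF and 9.24 in COF (-1.03 ± 0.24, adjusted p = 0.0105). The others called lower were the reductase genes Akr1c18 (-0.79 ± 0.20) and Cbr3 (-0.48 ± 0.15), so genes of this list were called in both directions. Slco3a1, a related transporter gene, was 4.27 ± 0.20 higher in CAF than in CSC, where replicate 2 lay under the lower quartile.

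**Figure D4:**
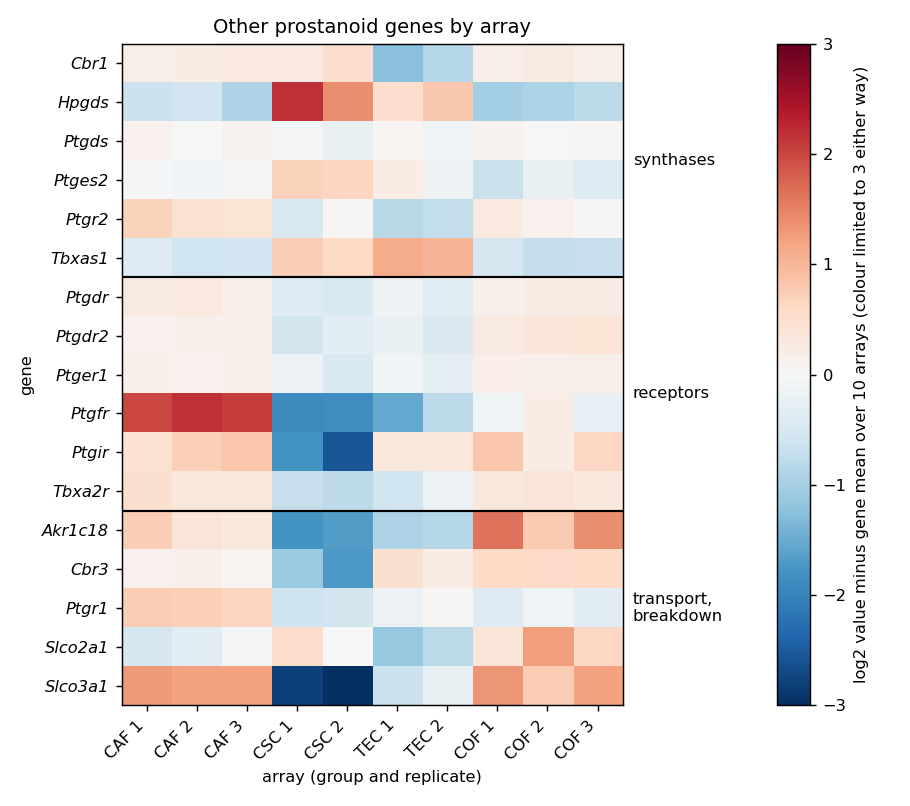
Heat map of 17 other prostanoid genes (rows, in 3 lists) on the 10 arrays (columns), coloured by the log2 value minus the gene's mean over all arrays, with the colour limited to 3 either way. Ptgfr is above its mean on the 3 CAF arrays, and Ptgir and Slco3a1 are lowest on the CSC arrays.

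Other genes that release or handle arachidonic acid were taken as a list. Of 15 other genes of phospholipases and arachidonate handling 14 were measured, and between CAF and COF 3 were called higher, 1 lower and 10 did not pass (median 0.059). Pla2g7, coding for a secreted enzyme that degrades platelet-activating factor, stood at 6.47 on average in CAF and 10.59 in COF (-4.12 ± 0.42, adjusted p = 1.48e-04). Mgll, whose product releases fatty acids from monoacylglycerols, averaged 8.91 in CAF and 7.89 in COF (1.02 ± 0.21, adjusted p = 0.00537), and it averaged 10.98 in CSC and 7.96 in TEC (3.02 ± 0.26). The lysosomal phospholipase gene Pla2g15 (0.77 ± 0.12) and the acyltransferase gene Lpcat3 (0.66 ± 0.10) were the others higher in CAF than in COF.

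Genes known to induce or restrain Ptgs2 were compared as a list of 20, with 19 measured. Between CAF and COF 1 was called higher, 4 lower and 14 did not pass (median -0.12), a share of calls to be read beside the 34.8% of all genes. With only fibroblast arrays fitted, 4 were higher and 6 lower. Lower were Rela (-0.72 ± 0.14), a subunit of NF-kappa-B, Elavl1 (-0.71 ± 0.08), which stabilises AU-rich messages, the glucocorticoid receptor gene Nr3c1 (-0.65 ± 0.16) and Cebpb (-0.26 ± 0.09), and higher was Il1rn (0.91 ± 0.23), the interleukin-1 receptor antagonist, which lay under the lower quartile on 5 of the 6 fibroblast arrays. Interleukin-1 itself separated the tumour populations from the fibroblasts. Il1b averaged 5.76 in CAF, 11.78 in CSC, 14.22 in TEC and 5.52 in COF, near the lower quartile in both fibroblast groups, and the receptor gene Il1r1 averaged 11.86 in CAF, 8.03 in CSC, 9.48 in TEC and 11.93 in COF. Between CSC and TEC 14 of the 19 were called lower in CSC and 1 higher, beside 20.1% and 26.6% of all genes. The 8 leukocyte markers were all lower in CSC as well, while of 8 macrophage markers 3 were higher and 0 lower. The part of these cells was not tested.

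Downstream of the receptors, 15 of 20 cyclic AMP genes were measured, and between CAF and COF 4 were called higher, 4 lower and 7 did not pass (median -0.12). Crem, a cyclic AMP-responsive transcription factor gene, averaged 8.21 in CAF and 9.70 in COF (-1.49 ± 0.19, adjusted p = 5.11e-04). The adenylate cyclase genes Adcy6 (-0.71 ± 0.16) and Adcy3 (-0.63 ± 0.18) were lower too, whereas Adcy7 (0.51 ± 0.17) was higher, as was the inhibitory G protein gene Gnai2 (0.32 ± 0.09). Between CSC and TEC 2 were higher and 8 lower in CSC, with Crem at averages of 9.31 in CSC and 10.72 in TEC (-1.42 ± 0.24). All lists were chosen with earlier results of these data known, and their counts are descriptions.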

How the data were processed

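Values were the authors' deposited log2 intensities, 22690 probe sets by 10 single-colour arrays. Per the submitters' processing notes RMA was used, a method of background correction, quantile normalization and summary over probes. Its version, and whether all arrays entered together, are not given in the sources used here. Medians of the arrays were 6.89 to 7.02, and the number of arrays limits the precision. Groups came from the sample titles. The annotation gave 20393 probe sets 1 symbol, and the brightest per symbol on average was kept, for 12394 genes.

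Differences were tested in R 4.3.3 with limma 3.58.1 (lmFit, eBayes) on all 10 arrays with group as the only term, in 6 contrasts. Tests were two-sided, adjusted by Benjamini-Hochberg over all genes, and called at an adjusted p under 0.05. Second probe sets were tested in a like fit on the 20393 probe sets. Errors are moderated SEs unless called SD. The fit was tested on simulated data. Detection calls were not used here, and where a named gene lay under an array's lower quartile over genes the size of its difference is uncertain. The genes, pathway lists and marker lists were chosen with earlier results of these data known. Named were the 9 genes, the 3 most correlated with each, and up to 4 of each pathway list per contrast by adjusted p, and a few more as examples chosen after their values were seen. Promoter windows came from RefSeq, where 8 of the 9 genes matched and Ptgis did not. Alternatives are listed in the closing section.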

Additional observations from a re-analysis of the deposited data

How the results depend on the processing

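The alternatives were the groups in the fit, the replicate number as a block, a trended robust prior, a filter on dim genes, other choices of probe set, 2 other normalizations, stricter thresholds and leaving out each array. Averaging the close pairs of arrays, and the list counts on fibroblast arrays only, were added after seeing the data. Of the 4 genes called between CAF and COF, 2 also had a log2 difference of 1 or more. Leaving out any 1 of the CAF or COF arrays gave 3 of the 8 genes there. Over all genes, 1805 were called between CAF and COF with close pairs averaged, 2638 at an adjusted p under 0.01 and 1030 with a difference of at least 1, against 4309. Leaving out arrays gave 2980 (without COF replicate 3) to 5100. Between CSC and TEC 3013 were called in a fit on those groups alone, against 5786. With a difference of at least 1, 2377 were called there, 3417 between CAF and CSC, 3586 between CAF and TEC, 3894 between CSC and COF and 3807 between TEC and COF.

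Reversed signs arose only for differences that did not pass. Ptgis between CAF and COF was -0.11 with close pairs averaged, -0.097 without COF replicate 1, -0.043 without COF replicate 3 and -0.032 without CAF replicate 1, with 0.21 as the highest (without COF replicate 2). Ptges between CAF and CSC was -0.43 as the mean of its probe sets, -0.0086 with close pairs averaged, -0.031 without CAF replicate 1 and -0.12 without CSC replicate 2, with 0.13 as the highest (without CSC replicate 1). Hpgd between CSC and TEC was 0.45 without TEC replicate 2 and -2.53 without TEC replicate 1. With the mean of probe sets, Ptgs2 passed between TEC and COF (adjusted p = 0.00828) and Ptges between CSC and COF (0.00943). The cause of these changes was not tested.

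Same-numbered arrays did not deviate together (r of -0.082 to 0.127 over 13 pairs, and 5 of 10 arrays correlated best with an array of their own number), so the numbers were not taken as pairs. With the replicate block 4 of the 8 genes were called between CAF and COF, 5 between CSC and TEC and 6 between CAF and CSC, as without it, and 3947, 5365 and 7813 of all genes.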

Other observations

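The leukotriene branch, which competes for the same arachidonic acid, was measured in 10 of 12 genes. Between CAF and COF 2 were called higher and 0 lower, beside 18.1% and 16.7% of all genes. Alox5ap, coding for the protein that presents arachidonic acid to 5-lipoxygenase, averaged 6.77 in CAF and 6.09 in COF (log2 difference 0.68 ± 0.20, limma, adjusted p = 0.0291), and the leukotriene C4 synthase gene Ltc4s averaged 6.82 in CAF and 6.34 in COF (0.49 ± 0.12, adjusted p = 0.0125). Between CSC and TEC 4 were called lower and 0 higher, beside 20.1% and 26.6% of all genes. The leukotriene B4 receptor gene Ltb4r1 averaged 6.71 on the CSC arrays and 9.99 on the TEC arrays (-3.28 ± 0.23, adjusted p = 1.34e-05), and Alox5ap averaged 10.92 on the CSC arrays and 13.57 on the TEC arrays (-2.66 ± 0.25, adjusted p = 4.62e-05). All 8 leukocyte markers differed in the same directions in both comparisons. Of 8 macrophage markers 5 were higher in CAF than in COF, but between CSC and TEC 3 were higher and 0 lower in CSC. The part of these cells in the values was not tested.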
